A study of Mus musculus with 23 samples.

Results

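Wnt proteins are secreted ligands that bind Frizzled receptors on the cell surface, and the genes described here encode the ligands, the receptors and 2 families of secreted inhibitors. All probes whose gene symbol is a Wnt, a Frizzled (Fzd), an Sfrp, a Dkk or Frzb were taken from the array's annotation table. This gave 38 genes with 43 probes, of 36227 probes on the array and 21615 with a single gene symbol: 19 Wnt genes, 10 Fzd genes, 5 Sfrp and Frzb genes and 4 Dkk genes. The rule uses gene symbols and no intensity.

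Pooled whole mouse embryos of day 8.5 were profiled for transcripts with CodeLink 1-colour arrays, one array a pool. The embryos came from crosses of p53 heterozygous mice, were bathed for 10 minutes in water at 38 °C (control) or 43 °C (heat), and were pooled by genotype and bath with 3 to 7 embryos a pool. The 6 groups are wildtype (+/+), heterozygous (+/-) and null (-/-) control pools, with 4 pools each, wildtype and heterozygous heat pools, with 4 each, and null heat pools, with 3. A further null heat pool was not analysed here, and the time between bath and collection is not given in the sources used here. No probe carries the symbol Trp53, and a check of the genotypes by the targeted gene was not possible. Pools are called A to D as the labels name them. The series' design text calls them biological replicates but names no litters, so the p-values reflect only how much these pools vary.

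In the canonical pathway a Wnt bound to a Frizzled and an Lrp co-receptor stabilises beta-catenin, which then activates target genes with TCF and LEF factors. Other Wnts, Wnt5a and Wnt11 among them, act mainly through pathways that steer cell polarity and movement. Sfrp proteins and Frzb bind Wnts outside the cell, and Dkk1 blocks the Lrp co-receptors. In the embryo at this stage Wnt3a is made in the tailbud, where it maintains the precursors of the presomitic mesoderm, and along the dorsal neural tube, and Wnt1 marks the midbrain and the dorsal neural tube.

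Wnt3a and Wnt4 were the ligands that passed the test for heat, so the 250 bases before their RefSeq transcription start are shown (assembly GRCm38.p6, read 5′ to 3′ on the gene's strand). The Wnt3a window is chr11:59290752-59291001 on the minus strand and the Wnt4 window is chr4:137277385-137277634 on the plus strand. Capitals mark GC boxes (GGGCGG on either strand, with overlaps counted), the motif bound by Sp-family factors.
Wnt3a: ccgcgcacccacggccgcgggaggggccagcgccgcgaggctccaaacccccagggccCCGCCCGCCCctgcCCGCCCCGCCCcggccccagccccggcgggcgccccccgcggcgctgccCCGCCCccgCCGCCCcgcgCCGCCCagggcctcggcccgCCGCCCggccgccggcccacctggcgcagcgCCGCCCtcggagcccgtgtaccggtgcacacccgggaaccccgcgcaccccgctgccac
Wnt4: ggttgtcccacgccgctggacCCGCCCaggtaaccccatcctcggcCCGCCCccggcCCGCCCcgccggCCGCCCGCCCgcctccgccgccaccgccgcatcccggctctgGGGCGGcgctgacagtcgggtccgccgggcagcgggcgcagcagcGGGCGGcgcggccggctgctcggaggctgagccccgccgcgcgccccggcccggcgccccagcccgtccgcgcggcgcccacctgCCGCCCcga
The Wnt3a window holds 9 GC boxes and 87.6% G and C, and the Wnt4 window 8 and 85.2%. Of the 32851 mouse promoter windows in the table, 32.7% hold at least 1 GC box and the median G and C content is 52.4%. The table matched 26 of the 38 genes with 29 windows, of which 21 hold a GC box, and their median G and C content is 68%. Neither printed window holds a TCF/LEF site (CTTTGA or CTTTGT), a heat shock element (GAANNTTC) or a p53 half-site, all searched on both strands. TCF/LEF sites were found in 8 of the 29 windows and in 27.6% of all windows, and the 8 belong to Dkk1, Dkk2, Frzb, Fzd1, Fzd7, Wnt11, Wnt5b and Wnt8b. Heat shock elements were found in 2 (Wnt16 and Wnt5b) against 6.69% of all, and a p53 half-site in 1 (Wnt11) against 7.13%. A match is only a match of letters.

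Most of these genes gave a usable signal. A probe was tested if it had at least 3 values in each group and exceeded the 40th percentile of the array on 3 or more arrays. Of the 43 probes 34 passed, for 30 genes, which is 79.1% against 60.7% of all probes. Of the 21615 probes with a single gene symbol, as these have, 14500 passed. The tested ligands are Wnt1, Wnt2, Wnt2b, Wnt3, Wnt3a, Wnt4, Wnt5a, Wnt5b, Wnt6, Wnt7a, Wnt8a, Wnt8b, Wnt9a, Wnt10a and Wnt11. The tested receptors are Fzd1, Fzd2, Fzd3 (4 probes), Fzd4, Fzd7, Fzd8, Fzd9 and Fzd10, and the tested inhibitors are Sfrp1 (2 probes), Sfrp2, Sfrp4, Sfrp5, Frzb, Dkk1 and Dkk3. Dkk2, Dkk4, Wnt7b, Wnt9b, Wnt16 and the other probe of Wnt4 had too few values, and Fzd5, Fzd6 and Wnt10b were too low. Dkk4, Wnt7b and Wnt16 are empty on all 12 control arrays, and on the 11 heat arrays they lie between 0.0921 and 0.417 relative intensity units.

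That pattern of empty cells follows the deposited columns. Every control column leaves 7576 to 11666 cells empty and every heat column none, so the 40th percentile is 1.14 to 1.61 on control arrays and 0.659 to 0.688 on heat arrays. Of the 34 tested probes 7 passed the low-value filter through heat arrays alone: Fzd1, Sfrp4, Wnt2b, Wnt8b, Wnt9a, Wnt10a and Wnt11. They lay below the 40th percentile on every control array. They are counted among the 34 below, and their changes between baths carry this limit. Among control arrays Sfrp5 exceeded the percentile on heterozygous control B alone (1.21 against 1.14), so its changes carry much the same limit. The effect of the bath and that of how the arrays were handled cannot be told apart. Markers of the whole embryo were present: 9 of 11 neural genes and 9 of 12 heart muscle genes were tested. In whole embryos, fewer cells of a type and less RNA per cell cannot be told apart.

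Intensities below are normalized, in the array's relative units, and are compared only within a probe. Changes are log2 fold changes ± SE from limma's moderated test, with Benjamini-Hochberg adjusted p-values over all 21979 tested probes and a threshold of 0.05. The words rose and fell are kept for changes past it.

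With heat, averaged over the 3 genotypes, 4 of the 34 probes fell and 0 rose: Wnt3a, Wnt4, 1 probe of the receptor gene Fzd3 and 1 probe of the inhibitor gene Sfrp1. Of all tested probes 12.2% passed in this comparison and of these 34 probes 11.8% did. By role, 2 of 15 ligand probes, 1 of 11 receptor probes and 1 of 8 inhibitor probes fell. The median change over the 34 probes was -0.02, beside 0.00 over all probes, and 15 were positive. Changes ran from -0.33 to 0.47, and the largest, a positive change of a ligand probe, did not pass.

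Wnt3a was at 12.6, 12.5, 14 and 12.6 in wildtype control pools A to D and at 9.70, 13.0, 10.4 and 13.2 in wildtype heat pools A to D. Wildtype heat A and C lay below all 4 controls, while B and D lay within their range. In heterozygous pools it was at 13.3, 14, 14.6 and 15.0 in controls and at 12.3, 14, 12.8 and 14.5 with heat, ranges that overlap. In null pools it was at 14, 14.1, 13.4 and 15.4 in controls and at 11.4, 8.66 and 10.3 with heat. Every null heat pool lay below every control pool of any genotype. Averaged over genotypes Wnt3a fell by 0.25 ± 0.06 (adjusted p = 0.00721), a call kept in all 34 alternative analyses (adjusted p from 0.00241 to 0.0281).

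Within genotypes the Wnt3a change was -0.17 ± 0.10 in wildtype pools (adjusted p = 0.404) and -0.50 ± 0.11 in null pools (adjusted p = 0.0133), where the mean went from 14.2 ± 0.833 (SD, n = 4) to 10.1 ± 1.37 (SD, n = 3). The difference between these responses, -0.33 ± 0.15, did not pass (adjusted p = 0.202), so the null response is not shown to be larger. Without null heat pool B, the lowest, the null change was -0.39 (adjusted p = 0.1). It was -0.46 with values as deposited (adjusted p = 0.0754) and -0.50 with the null arrays fitted alone (adjusted p = 0.0538).

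**Figure D1:**
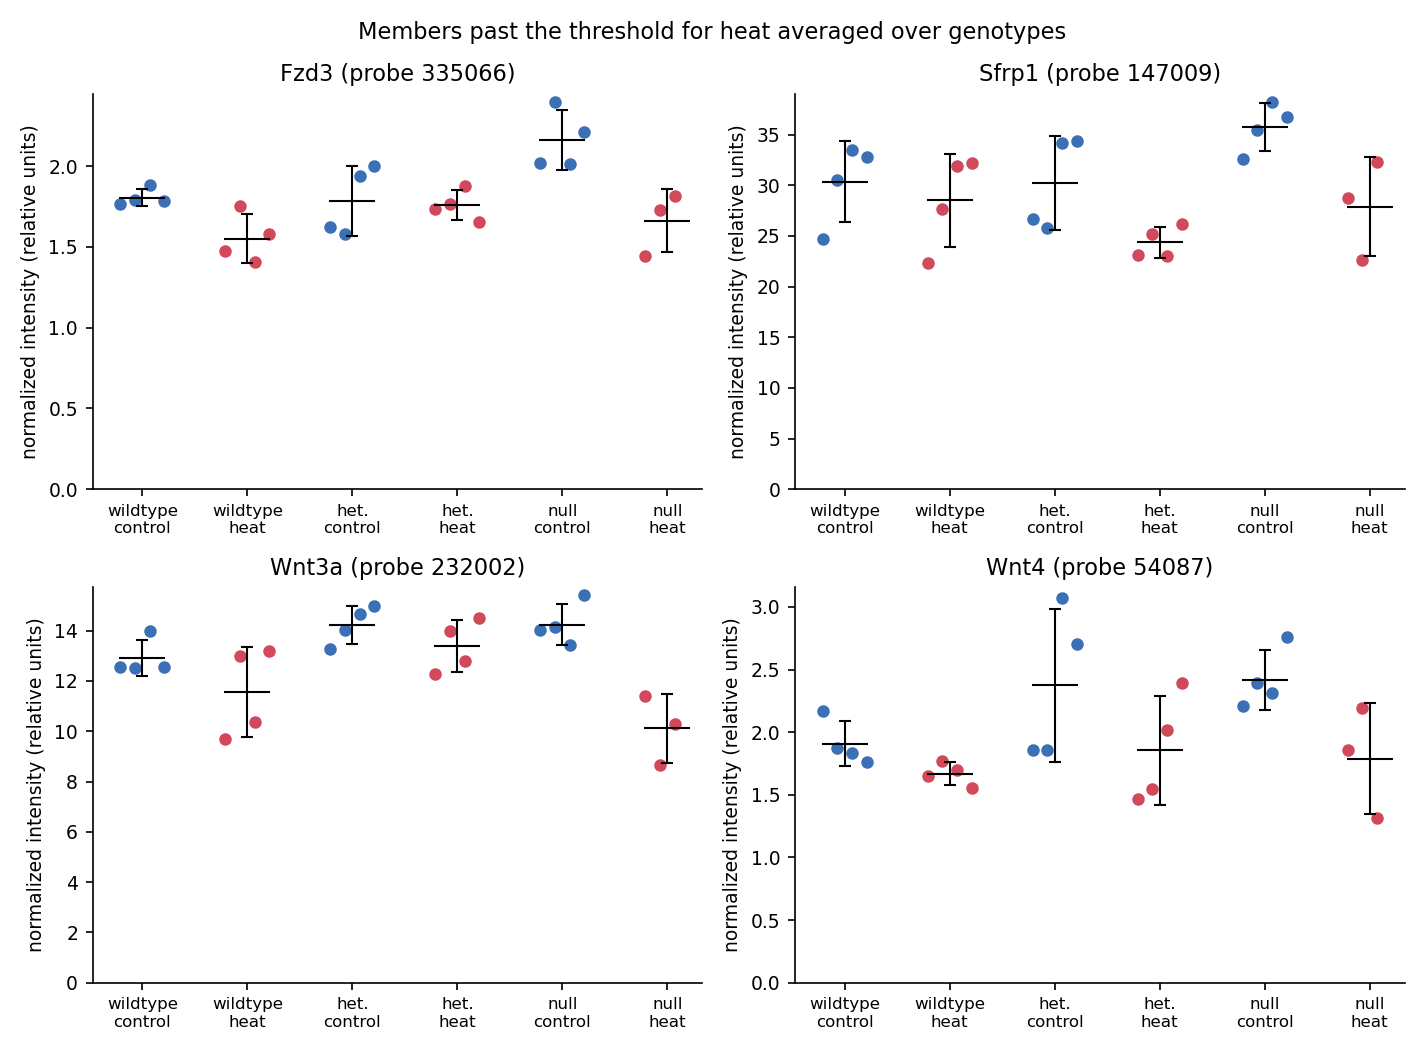
Normalized intensity (relative units, y axis from 0) of the 4 probes past the threshold for heat averaged over genotypes, in each pool (blue control bath, red heat bath), by genotype and bath on the x axis; the bar is the mean and its whiskers the SD. Wnt3a lies at 8.66 to 11.4 in the null heat pools and at 12.5 to 15.4 over all control pools.

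Wnt4, a ligand known for its part in kidney and gonad formation, was at 2.17, 1.88, 1.84 and 1.76 in wildtype controls and at 1.65, 1.77, 1.70 and 1.55 with heat. In heterozygous pools it was at 1.86, 1.86, 3.07 and 2.71 in controls and at 1.47, 1.54, 2.02 and 2.39 with heat. In null pools it was at 2.21, 2.39, 2.31 and 2.76 in controls and at 1.86, 2.19 and 1.32 with heat. Null pools do not overlap between baths, and in the other genotypes they do. Averaged over genotypes Wnt4 fell by 0.33 ± 0.10 (adjusted p = 0.0372), with changes of -0.19, -0.35 and -0.46 in wildtype, heterozygous and null pools that did not pass alone. The call was lost without any one of wildtype control A, heterozygous control C or D, null control B or D, wildtype heat A or D, heterozygous heat A or B, or null heat A or C (adjusted p from 0.0502 to 0.0849).

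Sfrp1 encodes an inhibitor that binds Wnts, and its probe 147009 lay at 24.7 to 33.5 in wildtype controls, 25.7 to 34.3 in heterozygous controls and 32.6 to 38.3 in null controls. With heat it lay at 22.3 to 32.1 in wildtype, 23 to 26.1 in heterozygous and 22.6 to 32.3 in null pools. Only in null pools do the baths not overlap. The probe fell by 0.26 ± 0.08 averaged over genotypes (adjusted p = 0.0341), and lost the call without any one of wildtype control C or D, heterozygous control C or D, null control C or D, wildtype heat A or B, heterozygous heat A or C, or null heat B (adjusted p from 0.0502 to 0.0841). The gene's other probe, 8032, did not pass (-0.05 ± 0.10, adjusted p = 0.793), and over the 23 arrays the 2 probes ran in opposite directions, with a correlation of log2 levels of -0.51. A statement about the Sfrp1 transcript as a whole therefore does not follow from either probe.

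Fzd3 encodes a receptor used in planar cell polarity, and its 4 probes gave different results. Probe 335066 was at 1.77, 1.79, 1.88 and 1.78 in wildtype controls and at 1.47, 1.75, 1.40 and 1.58 with heat. In null pools it was at 2.02, 2.40, 2.01 and 2.21 in controls and at 1.44, 1.73 and 1.81 with heat, so that in both genotypes the heat pools lay below the controls without overlap. In heterozygous pools it was at 1.62, 1.58, 1.94 and 2 and at 1.73, 1.77, 1.87 and 1.65, which overlap. It fell by 0.21 ± 0.06 averaged over genotypes (adjusted p = 0.0261) and by 0.38 ± 0.11 in null pools (adjusted p = 0.0444). The averaged call was lost without heterozygous control D, null control B or null heat A (adjusted p from 0.0503 to 0.0725). Without heterozygous control D, 1 of the 4 averaged calls was left, Wnt3a.

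The call of probe 335066 in null pools was lost without any one of wildtype control B, C or D, null control B, C or D, heterozygous heat B or C, or null heat A or B (adjusted p from 0.0519 to 0.152). Averaged over genotypes the other Fzd3 probes changed by -0.12 ± 0.10 (probe 5092), -0.03 ± 0.24 (probe 271106) and -0.04 ± 0.06 (probe 348110), and none passed. Correlations of log2 levels between the 4 probes over the 23 arrays ran from 0.03 to 0.45. All 4 averaged changes are negative, but they differ in size.

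No member passed with heat in wildtype pools or in heterozygous pools, beside 3.08% and 2.31% of all tested probes. At an unadjusted p under 0.05 there were 4 and 2 of the 34 probes in limma's test, beside 3914 and 3461 of all 21979. In wildtype pools the smallest p belonged to Sfrp1 probe 8032 (-0.42 ± 0.16, adjusted p = 0.166), Sfrp5 (-0.56 ± 0.25, adjusted p = 0.239) and Fzd3 probe 335066 (adjusted p = 0.253). In heterozygous pools they were Sfrp1 probe 147009 (-0.30 ± 0.13, adjusted p = 0.264), Wnt8a (0.33 ± 0.15, adjusted p = 0.266) and Sfrp4 (0.25 ± 0.12, adjusted p = 0.33). Sfrp4 passed the low-value filter through heat arrays alone. In the wildtype comparison 7 of 8 inhibitor probes had negative changes, with a median of -0.14, and 4 of 8 did in the heterozygous one, with a median of 0.00. The medians over all tested probes were 0.01 and 0.02. Both Sfrp1 probes are counted, and Dkk1, Dkk3, Sfrp5 and Sfrp1 probe 8032 were low together in wildtype heat C and D.

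In null pools 2 of 34 probes fell with heat, Wnt3a and Fzd3 probe 335066, and 0 rose, where 5.53% of all probes passed. Other probes came near the threshold without passing. Nearest was Fzd3 probe 348110, at 2.23, 2.09, 2.02 and 1.88 in null controls and at 1.65, 1.52 and 1.55 with heat, all below the controls (-0.38 ± 0.12, adjusted p = 0.0534). Wnt5a, a ligand of the polarity pathway, was at 0.934, 0.777, 0.670 and 0.627 in null controls and at 1.73, 1.91 and 0.983 with heat, all above the controls (0.99 ± 0.31, adjusted p = 0.061). Its null controls lay below the 40th percentile of their arrays (1.48 to 1.54), so the size of this change is uncertain at its low end. The receptor gene Fzd2 was at 9.96, 8.66, 8 and 5.92 in null controls and at 11.1, 14.8 and 10.4 with heat (0.58 ± 0.20, adjusted p = 0.0781). Dkk1, the Lrp-blocking inhibitor, was at 1.56, 1.33, 1.10 and 1.72 and then at 2.01, 2.87 and 2.01 (0.69 ± 0.24, adjusted p = 0.0834). For these 3 probes every heat pool lay above every control pool.

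Null heat and null control pools did not overlap for 12 of the 34 probes, against 23.3% of all tested probes. Heat pools were higher for Dkk1, Fzd2 and Wnt5a and lower for Wnt3a, Wnt4, Wnt6, Wnt7a, Wnt11, Fzd4, Sfrp1 probe 147009 and Fzd3 probes 335066 and 348110. Of these, Wnt11 passed the low-value filter through heat arrays alone. The count that passed in null pools depended on the analysis. It was 0 with values as deposited or with the null arrays fitted alone, and 0 without null heat B.

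**Figure D2:**
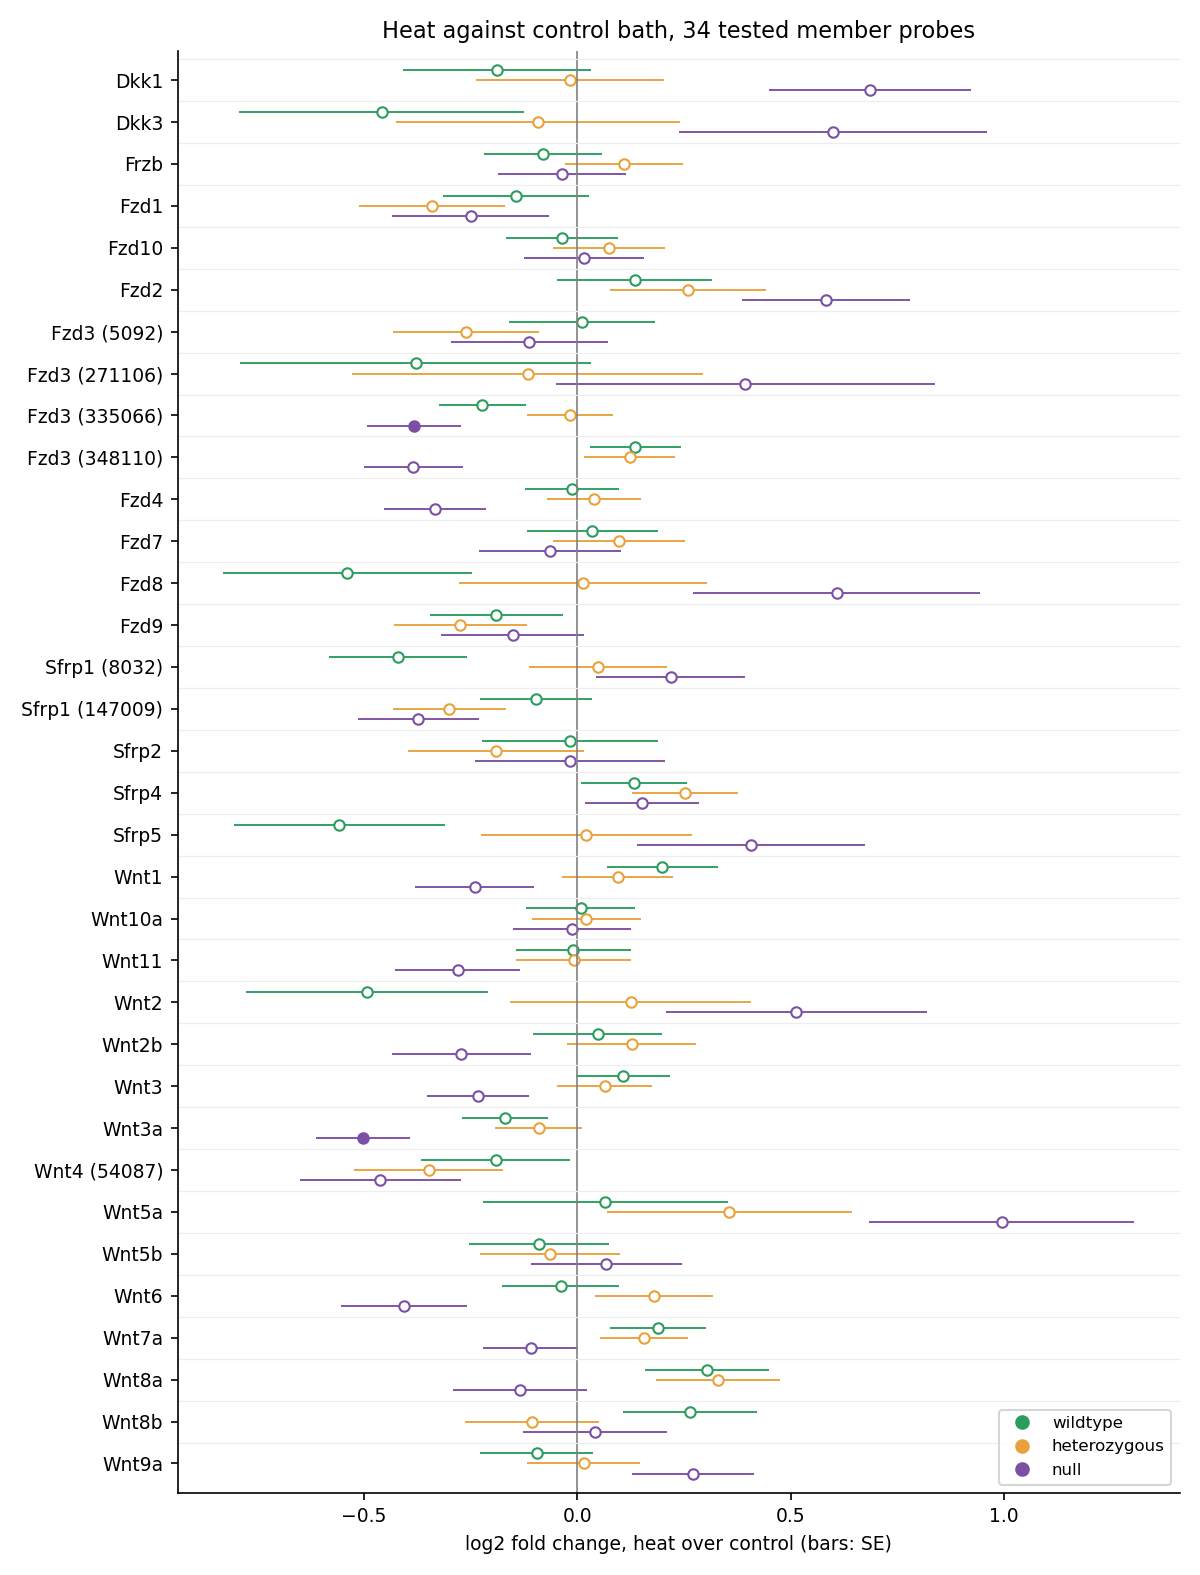
Log2 fold change of heat over control bath (x axis) for each of the 34 tested probes (y axis) in wildtype (green), heterozygous (orange) and null (purple) pools, with bars of 1 SE; filled points passed the threshold. Filled points are Wnt3a at -0.50 and Fzd3 probe 335066 at -0.38, both in null pools.

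Whether the heat response depended on genotype was tested as a difference between responses. For null minus wildtype 0 of 34 probes passed, beside 1.01% of all probes. At an unadjusted p under 0.05 in limma's test there were 11 of the 34, beside 4867 of all 21979. The smallest p belonged to Fzd3 probe 348110 (-0.52 ± 0.16, adjusted p = 0.0993), Dkk1 (0.87 ± 0.32, adjusted p = 0.146) and Sfrp1 probe 8032 (0.64 ± 0.24, adjusted p = 0.147). The difference was positive for 7 of 8 inhibitor probes, with a median of 0.34, and negative for 11 of 15 ligand probes, with a median of -0.27. The median over all tested probes was -0.04. Dkk1, Dkk3, Sfrp5 and Sfrp1 probe 8032 were low together in wildtype heat C and D, and both Sfrp1 probes are counted. Without those pools 10 of all tested probes passed in this comparison, beside 222 with them. Yolk sac endoderm genes moved in it too, with a median of 1.21 and 15 of 15 positive. The part of these pools and of yolk sac in the inhibitors' and ligands' differences was not tested. No test was made on the roles as groups. For heterozygous minus wildtype 0 of 34 passed, beside 0% of all probes (0 of 21979 in limma's test, with 1324 at an unadjusted p under 0.05, of which 0 are members). There the smallest p belonged to Sfrp1 probe 8032 (0.47 ± 0.23, adjusted p = 0.842), Wnt8b (-0.37 ± 0.22, adjusted p = 0.875) and Sfrp5 (0.58 ± 0.35, adjusted p = 0.878). Wnt8b passed the low-value filter through heat arrays alone.

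Against wildtype controls, null controls had lower Wnt5a, Fzd8 and Fzd2 and a higher Fzd3 probe 348110, which is 4 of 34 probes (11.8%), beside 8.36% of all tested probes. The groups did not overlap for 8 of the 34 probes, against 25.9% of all. The median change over the 34 was 0.12, beside 0.04 over all probes.

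Wnt5a was at 2.21, 1.65, 1.40 and 1.54 in wildtype controls and below 1 in each null control, so the null pools lay apart. It fell from 1.70 ± 0.354 to 0.752 ± 0.137 (SD, n = 4 each), by 1.17 ± 0.29 (adjusted p = 0.0212), a ratio of 0.444. All null values lay below the 40th percentile of their arrays (1.48 to 1.54), so this ratio is uncertain at its low end. Fzd8, a receptor for canonical Wnts, was at 1.41, 1.32, 1.01 and 1.30 in wildtype controls and at 0.682, 0.439 and 0.389 in null controls A, B and D. Null control C is empty, and the value of D was raised to its array's floor. Null control B lay just above its floor (0.4747 deposited, floor 0.4741). Of the control pools of any genotype only wildtype control A exceeded the 40th percentile of its array. The probe thus passed the low-value filter through that pool and heat arrays, and the size of this change is uncertain at its low end. Fzd8 fell by 1.36 ± 0.31 (adjusted p = 0.0184), and this call was lost with values as deposited (adjusted p = 0.0534) and with arrays centred on their medians (adjusted p = 0.0553).

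Fzd2, a receptor linked to Wnt5a signalling, was at 13.0, 12.8, 10.6 and 12.9 in wildtype controls and no higher than 9.96 in null controls. It fell by 0.62 ± 0.18 (adjusted p = 0.0393). Fzd3 probe 348110 was at 1.68, 1.64, 1.44 and 1.42 in wildtype and at 2.23, 2.09, 2.02 and 1.88 in null controls. It rose by 0.41 ± 0.11 (adjusted p = 0.0249), while probes 335066 (0.26 ± 0.10, adjusted p = 0.113), 5092 (0.32 ± 0.17, adjusted p = 0.237) and 271106 (0.13 ± 0.41, adjusted p = 0.867) did not pass.

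Single pools decided several of these calls, although none changed direction. Wnt5a lost its call without any one of wildtype control A, B or D or null control B, C or D (adjusted p from 0.0502 to 0.066), and Fzd2 without any one of the 4 wildtype controls or null control B, C or D (adjusted p from 0.0516 to 0.144). Fzd3 probe 348110 lost it without wildtype control C or D or null control A, B or C (adjusted p from 0.05 to 0.0725). Without null control B none of the other 33 probes passed, and Fzd8, left with too few values, was not tested. The same holds for Fzd8 without null control A or D, so its call has no check against those pools. With the 8 arrays of this comparison fitted alone, 9 probes passed, among them these 4.

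**Figure D3:**
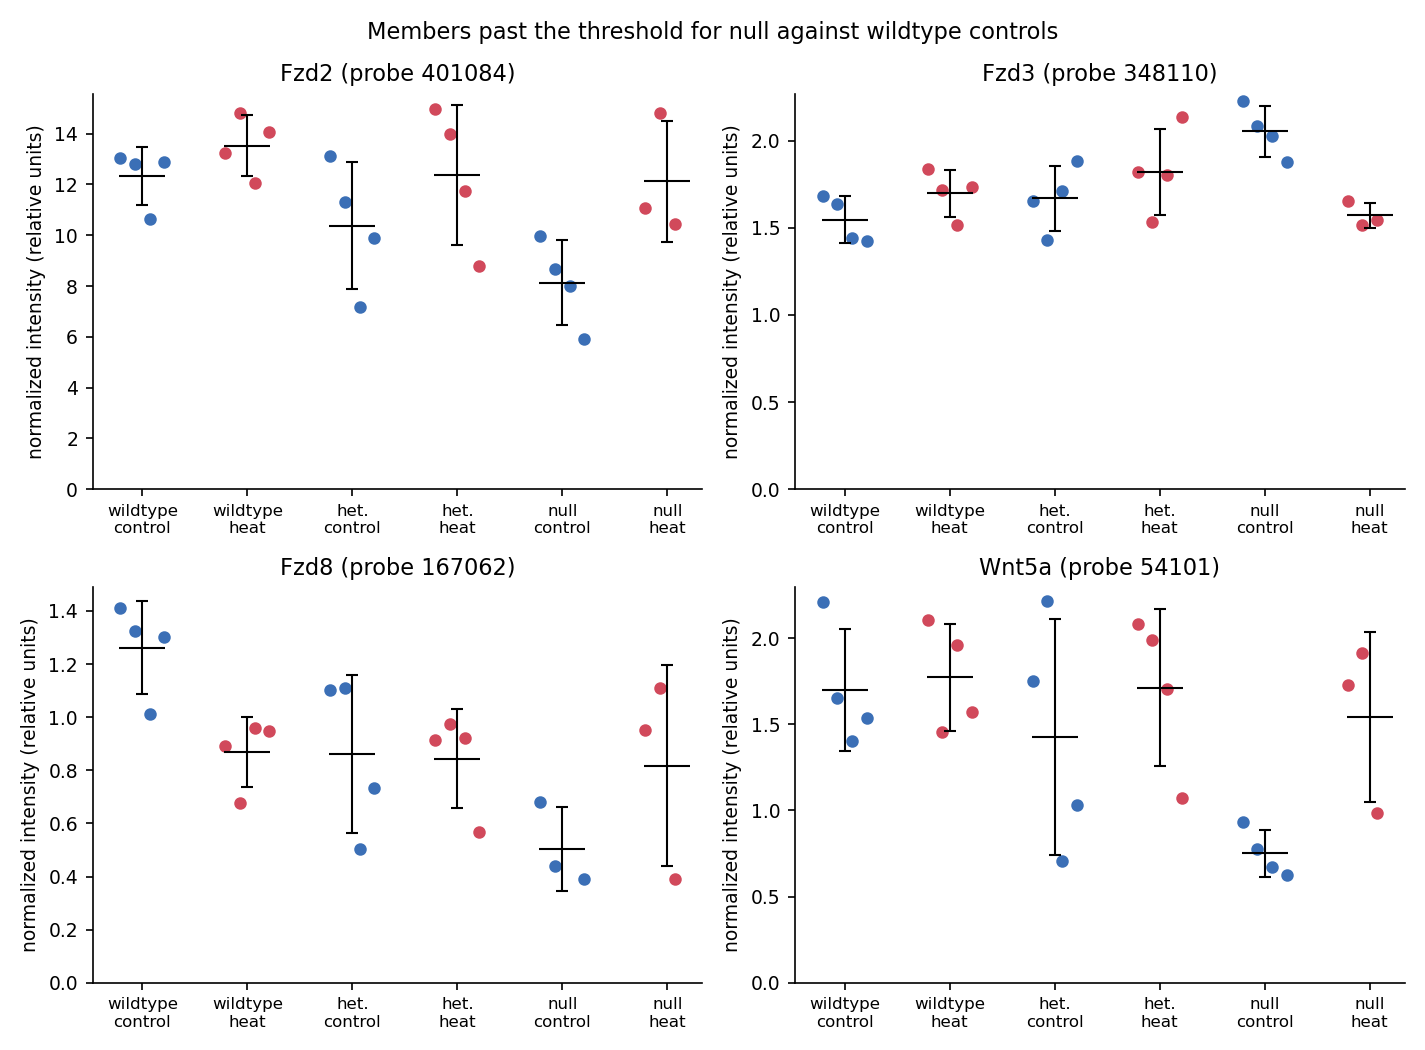
Normalized intensity (relative units, y axis from 0) of the 4 probes past the threshold for null against wildtype controls, in each pool (blue control bath, red heat bath), by genotype and bath on the x axis; the bar is the mean and its whiskers the SD. For Wnt5a the null controls lie at 0.627 to 0.934 and the wildtype controls at 1.40 to 2.21, while the heterozygous controls spread over both ranges.

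The heterozygous controls fell into pairs, for Wnt5a, Fzd8 and Fzd2 and across the array. Empty cells numbered 8508 and 7576 in heterozygous controls A and B and 11666 and 11532 in C and D. The first principal component of the residuals over all tested probes was -0.31 and -0.38 against 0.39 and 0.30, and the summed intensity of yolk sac genes was 342 and 298 against 202 and 179. Wnt5a was at 1.75 and 2.22 in heterozygous controls A and B and at 0.704 and 1.03 in C and D. Fzd8 was at 1.10 and 1.11 in A and B and at 0.502 and 0.732 in C and D, and Fzd2 at 13.1 and 11.3 against 7.17 and 9.90. For Wnt5a, Fzd8 and Fzd2 pools A and B thus lay near the wildtype controls and C and D near the null controls. Fzd3 probe 348110 was at 1.66 and 1.43 in A and B and at 1.71 and 1.88 in C and D. There C lay nearer the wildtype range than the null one. The split was seen after the values were examined. Empty cells numbered 8874 to 11610 in wildtype and 10965 to 11178 in null controls. Heterozygous A and B lay below both ranges, and C and D above the null range. Yolk sac sums ran from 279 to 437 in wildtype and from 186 to 334 in null controls. The part of these array-wide differences in the split was not tested. Against wildtype controls no member passed in heterozygous controls, beside 0.00455% of all probes (1 of 21979). At an unadjusted p under 0.05 in limma's test there was 1 of 34, beside 1302 of all 21979. The smallest p belonged to Fzd8 (-0.61 ± 0.29, adjusted p = 0.822), Wnt4 (0.28 ± 0.17, adjusted p = 0.826) and Fzd2 (-0.28 ± 0.18, adjusted p = 0.826).

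In the heat bath 0 of 34 probes passed for null against wildtype pools, beside 0.56% of all probes, and 0 for heterozygous against wildtype, beside 0.141%. There were 4 and 3 of the 34 probes at an unadjusted p under 0.05 in limma's test, beside 4475 and 2581 of all 21979. For null against wildtype the smallest p belonged to Sfrp5 (0.91 ± 0.27, adjusted p = 0.1), Dkk3 (0.96 ± 0.36, adjusted p = 0.166) and Wnt2 (0.77 ± 0.31, adjusted p = 0.182). Sfrp5 passed without null heat A (1.18, adjusted p = 0.0267). For heterozygous against wildtype they were Sfrp5 (0.75 ± 0.25, adjusted p = 0.223), Wnt2 (0.72 ± 0.28, adjusted p = 0.298) and Wnt3a (0.22 ± 0.10, adjusted p = 0.401). Null minus wildtype in the heat bath was -0.24 ± 0.31 for Wnt5a, -0.21 ± 0.31 for Fzd8 and -0.17 ± 0.20 for Fzd2, and none passed. The differences between the baths, which equal the differences between heat responses, were 0.93 ± 0.42 for Wnt5a (adjusted p = 0.205), 1.15 ± 0.44 for Fzd8 (adjusted p = 0.16) and 0.45 ± 0.27 for Fzd2 (adjusted p = 0.313).

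**Figure D4:**
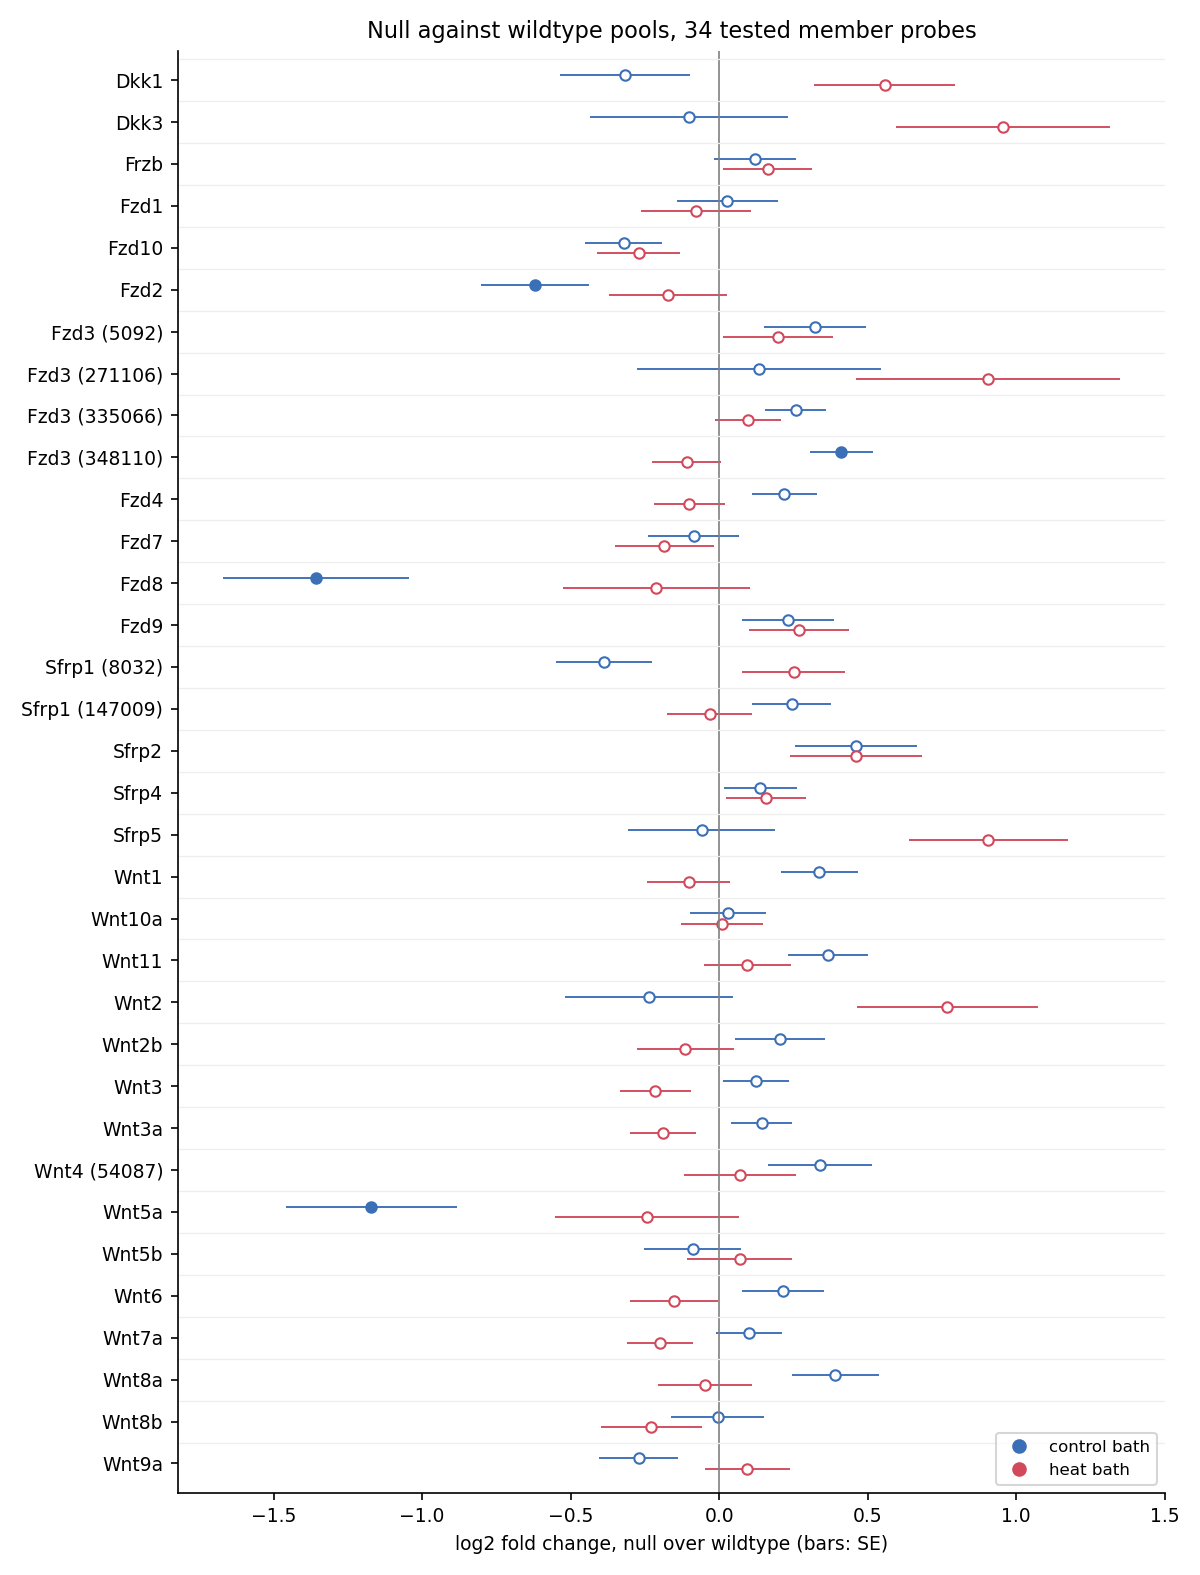
Log2 fold change of null over wildtype pools (x axis) for each of the 34 tested probes (y axis) in the control bath (blue) and the heat bath (red), with bars of 1 SE; filled points passed the threshold. The 4 filled points, Fzd8 at -1.36, Wnt5a at -1.17, Fzd2 at -0.62 and Fzd3 probe 348110 at 0.41, are all in the control bath.

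Several members differed more between pools of a group than between groups. Dkk3, a relative of Dkk1, was at 3.11 and 2.70 in wildtype heat A and B and at 1.13 and 1.04 in C and D. Wnt2, a ligand of the allantois and lung, was at 1.88 and 1.79 and then at 0.892 and 0.725, and Fzd3 probe 271106 was at 3.37 and 3.54 and then at 0.887 and 0.905. Dkk1 was at 2.12 and 1.90 and then at 1.26 and 1.10. Heterozygous heat A was low for the same probes, with Dkk3 at 1.40, Wnt2 at 1.17, Fzd3 probe 271106 at 1.27 and Dkk1 at 1.07. Sfrp5 was at 0.846 and 0.604 in wildtype heat A and B and at 0.447 and 0.470 in C and D, the lowest values of the 23 arrays. These probes were picked after their values were seen, so no test was made. They include the 3 with the smallest p for null against wildtype heat pools.

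**Figure D5:**
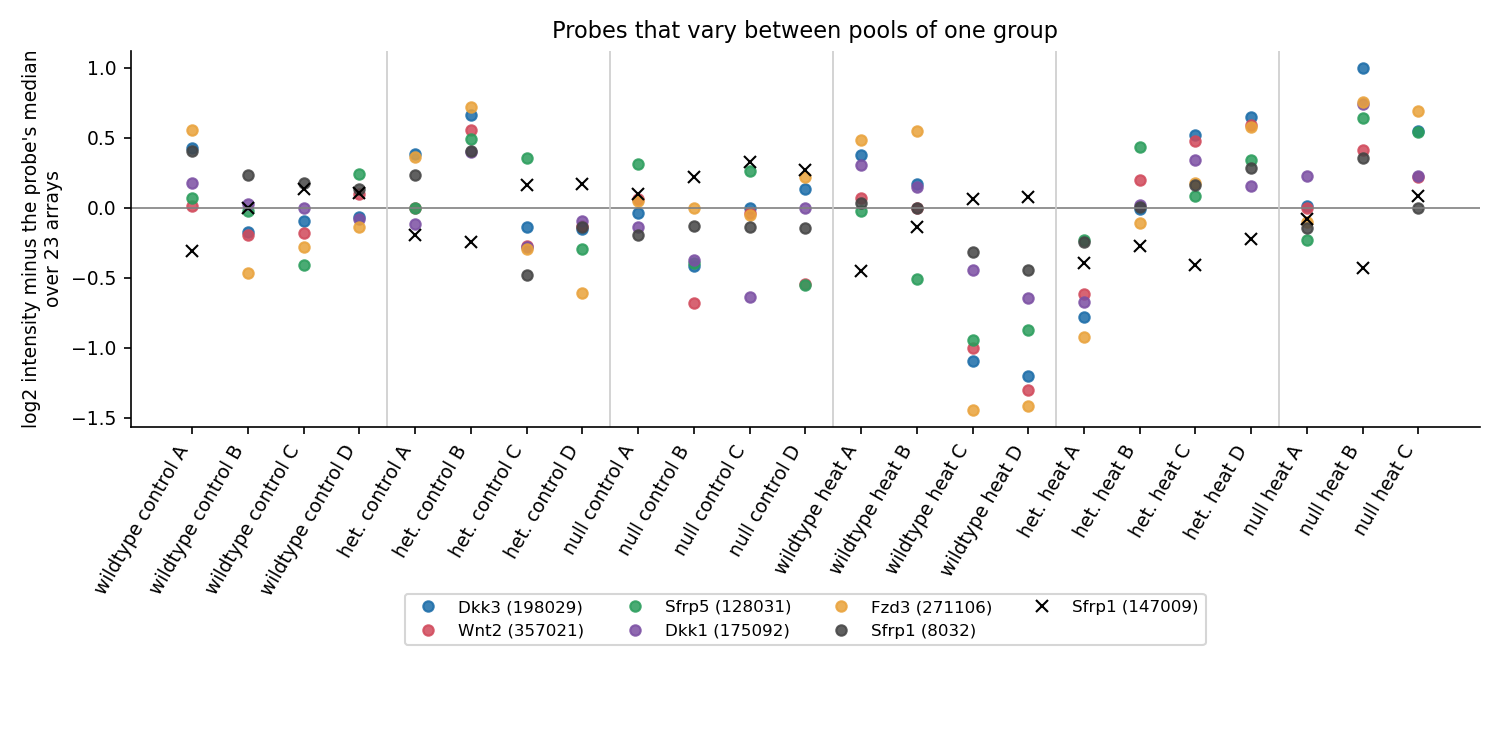
Log2 intensity of 7 probes in each of the 23 pools (x axis), minus that probe's median over all pools (y axis, 0 line in grey); grey lines separate the groups. Dkk3, Wnt2, Sfrp5, Dkk1, Fzd3 probe 271106 and Sfrp1 probe 8032 are low together in wildtype heat C and D, while Sfrp1 probe 147009 (crosses) is not.

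Transcripts of yolk sac genes also varied between pools. The summed intensity of 13 yolk sac endoderm genes with a value on every array (Afp, Ttr and apolipoproteins among them, of 15 listed and 15 tested) ran from 179 to 499. Its median was 348 in wildtype controls, 250 in heterozygous controls, 254 in null controls, 208 in wildtype heat, 380 in heterozygous heat and 373 in null heat pools. The median change of the 15 genes was -0.64 with heat in wildtype pools, 0.65 in heterozygous and 0.47 in null pools, 0.14 averaged over genotypes and -0.41 in null against wildtype controls. It was 0.63 for null and 0.90 for heterozygous against wildtype heat pools, and 1.21 and 1.30 for the null and heterozygous heat responses minus the wildtype one, with 15 of 15 genes positive in each of these 4. Of the 15 genes 1 passed with heat in wildtype pools, the apolipoprotein gene Apoa2 (-1.40 ± 0.35, adjusted p = 0.0308), and 0 passed in the other 9 comparisons.

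The yolk sac sum and the members were set side by side within groups, as deviations from group means. Over the 34 probes 0 of the correlations passed after adjustment. The smallest p for r belonged to Fzd8, Sfrp1 probe 147009, Wnt5a and Fzd3 probe 335066, of which Fzd8 and Wnt5a ran with the yolk sac sum and the other two against it. Fzd8 had a Pearson r of 0.55 (permutation p = 0.017, adjusted 0.25) and a Spearman rho of 0.51 (permutation p = 0.035, adjusted 0.2) over 22 arrays. Its r was 0.70 over the 11 control arrays, 0.44 over the 11 heat arrays and 0.60 without the 2 arrays farthest from the median. For Wnt5a r was 0.53 (permutation p = 0.027, adjusted 0.25) and rho 0.54 (permutation p = 0.034, adjusted 0.2) over 23 arrays, 0.51 over control and 0.57 over heat arrays, and 0.56 without those 2 arrays. For Sfrp1 probe 147009 r was -0.57 (permutation p = 0.026, adjusted 0.25) and rho -0.52 (permutation p = 0.036, adjusted 0.2) over 23 arrays, -0.40 over control and -0.72 over heat arrays, and -0.50 without those 2 arrays. For Fzd3 probe 335066 r was -0.56 (permutation p = 0.031, adjusted 0.25) and rho -0.55 (permutation p = 0.032, adjusted 0.2), -0.82 over control and -0.30 over heat arrays, and -0.64 without those 2 arrays. The part of yolk sac in the differences of these 4 probes was not tested.

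Of the rest of the pathway, gene lists of co-receptors and secretion, other extracellular inhibitors, intracellular components and target genes were examined, with a gene represented by its brightest tested probe. Averaged over genotypes, 6 of 23 tested target genes fell with heat and 0 rose, with a median of -0.06. Of all 12651 genes 15% passed, with a median of -0.01. Tbx6, needed for presomitic mesoderm, fell by 0.29 ± 0.07 (adjusted p = 0.0075). Mixl1, a primitive streak gene, fell by 0.41 ± 0.10 (adjusted p = 0.00951), Lef1, the nuclear partner of beta-catenin, fell by 0.18 ± 0.04 (adjusted p = 0.0103), and En2, of the midbrain and hindbrain, fell by 0.35 ± 0.10 (adjusted p = 0.0247). In null pools alone 1 of 23 fell, Tbx6 (-0.42 ± 0.12, adjusted p = 0.0498), and in wildtype and heterozygous pools 0 passed. Of all genes 6.34% passed in null, 3.6% in wildtype and 3.08% in heterozygous pools. Null controls differed from wildtype controls in 1 of the 23, Cdx1, a caudal homeobox gene, which rose by 0.50 ± 0.13 (adjusted p = 0.0223). In that comparison 8.5% of all genes passed.

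Of 14 co-receptor and secretion genes 1 rose with heat averaged over genotypes, Rspo3, an R-spondin that strengthens Wnt signals (0.38 ± 0.09, adjusted p = 0.00696). Of all genes 15% passed there. Rspo3 also rose in null pools (0.60 ± 0.16, adjusted p = 0.0361), where 6.34% of all genes passed. In null against wildtype controls it fell by 0.56 ± 0.15 (adjusted p = 0.0297). The co-receptor gene Lrp6 fell there too, by 0.55 ± 0.16 (adjusted p = 0.0378), and these were the 2 of 14 that passed, where 8.5% of all genes did. Of 9 other extracellular inhibitors 1 rose and 1 fell with heat averaged over genotypes, beside 15% of all genes. Dkkl1, a Dkk-like gene, rose by 0.62 ± 0.13 (adjusted p = 0.00347), and Sostdc1 fell by 0.56 ± 0.13 (adjusted p = 0.00602). Dkkl1 rose in heterozygous pools as well (0.83 ± 0.21, adjusted p = 0.0412), where 3.08% of all genes passed. In null against wildtype controls 0 of the 9 passed.

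Of 30 intracellular genes 1 rose and 2 fell with heat averaged over genotypes, where 15% of all genes passed. Cxxc5, which binds Dishevelled, rose by 0.34 ± 0.10 (adjusted p = 0.0253), Lef1 fell as above, and Tle1, a Groucho co-repressor, fell by 0.19 ± 0.06 (adjusted p = 0.0347). In null pools Cxxc5 rose by 0.70 ± 0.18 (adjusted p = 0.0296) and Gsk3a, a beta-catenin kinase, fell by 0.87 ± 0.20 (adjusted p = 0.0173). These were the 2 of 30 that passed there, beside 6.34% of all genes. In null against wildtype controls, where 8.5% of all genes passed, 2 rose, Dvl2 (0.56 ± 0.16, adjusted p = 0.0336) and Pygo2 (0.28 ± 0.08, adjusted p = 0.0285), and 3 fell. The Dishevelled gene Dvl1 fell by 1.16 ± 0.29 (adjusted p = 0.0226) and Tle3 fell by 1.44 ± 0.38 (adjusted p = 0.0258).

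Lists of the tissues that make Wnts were examined beside the same 15% of all genes. En2, Tbx6 and Msgn1 are also on the target list, so their calls are counted in both places. Averaged over genotypes, 3 of 9 roof plate and dorsal neural tube genes fell with heat and 0 rose: Lmx1a (-0.47 ± 0.09, adjusted p = 0.00132), Gdf6 (-0.33 ± 0.07, adjusted p = 0.00313) and Zic1 (-0.38 ± 0.10, adjusted p = 0.0204). By genotype, 2 of these 9 genes fell in wildtype pools, Gdf6 and Lmx1a, where 3.6% of all genes passed. In heterozygous pools 1 fell, Zic1, where 3.08% passed, and in null pools 0 passed, where 6.34% did. Averaged over genotypes, 1 of 9 midbrain and hindbrain genes fell, En2. Of 11 tailbud genes 2 fell, Tbx6 and Msgn1 (-0.23 ± 0.07, adjusted p = 0.0479), and 1 rose, the retinoic acid-degrading enzyme gene Cyp26a1 (0.37 ± 0.07, adjusted p = 0.00109). Of 9 neural genes 0 passed (Pax6 -0.24 ± 0.08, adjusted p = 0.0632, and Sox3 -0.29 ± 0.12, adjusted p = 0.114), and of 9 heart muscle genes 0 passed (Myl4 -0.10 ± 0.06, adjusted p = 0.34, and Myl2 -0.18 ± 0.12, adjusted p = 0.367).

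In null against wildtype controls, where Wnt5a, Fzd8 and Fzd2 fell and 8.5% of all 12651 genes passed, 2 of 9 neural genes rose and 1 fell. Pax6 rose by 0.49 ± 0.14 (adjusted p = 0.0313), the eye field gene Rax rose by 0.60 ± 0.18 (adjusted p = 0.0401), and Otx2, of the forebrain and midbrain, fell by 0.95 ± 0.27 (adjusted p = 0.0342). The roof plate list gave 1 gene, Msx1, which rose by 0.47 ± 0.11 (adjusted p = 0.0198), and the tailbud list gave Cdx1. Of 9 primitive red cell genes 2 fell, the transcription factor gene Klf1 by 1.10 ± 0.22 (adjusted p = 0.0107) and the erythropoietin receptor gene Epor by 0.92 ± 0.21 (adjusted p = 0.017). With heat Epor rose averaged over genotypes (0.38 ± 0.12, adjusted p = 0.0337) and in null pools (1.07 ± 0.22, adjusted p = 0.0101). Of 7 tested trophoblast and decidua genes 1 rose with heat, Dcn, averaged over genotypes (0.46 ± 0.12, adjusted p = 0.0139) and in null pools (0.94 ± 0.23, adjusted p = 0.0233). Of all genes 15% passed with averaged heat and 6.34% with heat in null pools. The part of red cells, decidua or other tissues in the members' differences was not tested.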

How the data were processed

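The members and gene lists were chosen with earlier results of these data known. The deposited values are array intensities on a linear relative scale (per the labels, CodeLink arrays); how the authors corrected background or normalized them is not given in the sources used here, and array medians lie near 1. Empty cells and the code -9999 were taken as missing (0.828% of tested cells). Values at or below an array's 5th percentile of positive values were set to it. Log2 values were quantile normalized on the 18702 probes measured on every array, whose array medians spanned 0.34, and the mapping was applied to all probes. Probes with at least 3 values in every group and a level over the 40th percentile of the array on 3 or more arrays were kept, 21979 of 36227.

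Group means of the 6 groups were fitted over all 23 arrays with limma 3.58.1 (R 4.3.3; lmFit, then eBayes with trend), giving 10 comparisons with Benjamini-Hochberg adjustment over all tested probes at 0.05. Fits were also run on simulated data drawn independently for each probe. That run had no differences shared across an array and does not test their effect. Gene names come from the platform's annotation, checked through the RefSeq gene table of GRCm38.p6, and 0 member symbols changed. List genes were represented by the probe of highest mean. All members are named, those past the threshold with their values, otherwise the 3 of smallest p; of other lists, up to 4 past the threshold or the 2 of smallest p. The GC box was added after the windows were seen. The number of arrays limits precision. Alternatives tried were the normalization, floor, filter, empty cells, arrays fitted, replicate letter, a residual component and leaving out arrays.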

Additional observations from a re-analysis of the deposited data

Results flagged for a closer look

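In 7 of the 168 sets of 4 pools examined (a probe in a group), 1 pool lay far from the other 3 by Dixon's criterion, where chance gives about 1 in 20. Wnt3a was at 14 in wildtype control C and at 12.5 to 12.6 in the others. Fzd2 was at 10.6 in the same pool, with the others at 12.8 to 13.0, and Wnt10a was at 1.25 there, with the others at 0.992 to 1.01. Wnt10a was at 1.03 in wildtype heat D, with the others at 1.07 to 1.08. Fzd7 was at 2.21 in wildtype control A, with the others at 2.59 to 2.66, and at 3.06 in null control C, with the others at 2.11 to 2.21. Fzd8 was at 0.568 in heterozygous heat D, with the others at 0.914 to 0.975. Wildtype control C is the pool in 3 of the 7.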

How the results depend on the processing

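No called member changed direction in any alternative run. With values as deposited, 0 members passed for heat in null pools, 2 for null against wildtype controls and 1 (Sfrp5) for null against wildtype heat pools. With only the arrays of a comparison, 0 passed for heat in null pools and 9 for null against wildtype controls. With medians centred, 1 passed for the null minus wildtype response (Fzd3 probe 348110). With the first principal component of the residuals as a covariate, which is taken from the same residuals, 10 passed for heat in null pools, 1 for heat in wildtype pools (Fzd8), 1 for null against wildtype heat pools (Sfrp5) and 3 for the null minus wildtype response. The following alternatives were chosen after seeing the data. Quantile normalization over tested probes alone left 1 for heat in null pools, Wnt3a, with Fzd3 probe 335066 lost (adjusted p = 0.052). Without heterozygous control A and B, or C and D, 6 passed there. Without C and D, 1 passed for heat in heterozygous pools (Wnt8a, 0.54, adjusted p = 0.0497) and 1 for averaged heat, and the uncalled Wnt4 difference of heterozygous from wildtype controls changed from 0.28 to -0.036 (adjusted p = 0.953). Without wildtype heat C and D, 2 passed for averaged heat. The causes were not tested.

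Leaving out 1 array at a time gave 0 to 4 members for heat in null pools, 1 to 6 averaged over genotypes, 0 to 4 for null against wildtype controls and 0 to 1 for null against wildtype heat pools. Over all alternatives the counts of all probes past the threshold varied. They were 357 to 1970 for heat in wildtype pools (reported 676), 64 to 1355 for heat in heterozygous pools (reported 508), 277 to 4048 for heat in null pools (reported 1215), 2141 to 4403 for heat averaged over genotypes (reported 2676), 289 to 4635 for null against wildtype, control bath (reported 1838), 0 to 68 for heterozygous against wildtype, control bath (reported 1), 1 to 1617 for null against wildtype, heat bath (reported 123), 2 to 920 for heterozygous against wildtype, heat bath (reported 31), 8 to 2380 for heat response, null minus wildtype (reported 222), 0 to 14 for heat response, heterozygous minus wildtype (reported 0).

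The labels do not say that a replicate letter pairs pools. Same-letter deviations correlated from -0.36 to 0.68, with 27 of 55 pairs over 0.1, and 7 of 23 arrays correlated best with their own letter. With the letter as a replicate block, 2 members passed for heat in null pools (1 of them also without the block), 5 averaged over genotypes (3 shared) and 4 for null against wildtype controls (all 4 shared), with 0 in the other comparisons. Under the block the averaged call of Wnt4 (adjusted p = 0.0525) and the call of Fzd3 probe 335066 in null pools (adjusted p = 0.0535) were lost. The block added averaged calls of Fzd2 and Wnt5a, whose averaged changes without it were positive. All-probe counts under the block were 2850, 509 and 66 for null against wildtype controls, null against wildtype heat and heterozygous against wildtype heat pools. The median of all probes moved by scaling: as deposited it was -0.12 for heat in wildtype pools, 0.14 for null and 0.13 for heterozygous against wildtype heat pools, and with medians centred -0.11 for heat in null pools and -0.10 for the null minus wildtype response.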
